A study of Mus musculus with 4 samples.

Results

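Adventitial fibroblasts were examined in the lungs of 2 wild-type (WT) and 2 Tubb3-/- mice, collected 14 days after bleomycin. A cell was taken as an adventitial fibroblast when it carried at least 2 UMIs (transcript molecules counted by their barcodes) of *Col1a2* and at least 1 UMI of 2 or more of the markers *Pi16*, *Scara5*, *Entpd2* and *Ccl11*, at most 1 UMI of *Cthrc1*, and none of *Ptprc*, *Cdh5*, *Epcam* and *Hhip*. This rule took 795 of the 30860 cells that met the quality limits of 200 to 7500 genes and at most 15% mitochondrial UMIs. There were 251 such cells in WT replicate 1, 132 in WT replicate 2, 220 in Tubb3-/- replicate 1 and 192 in Tubb3-/- replicate 2. The cells were chosen by their measured UMIs of these 10 genes, so the levels of these genes, and all differences between the chosen cells and other cells, are given as a description without a test.

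Adventitial fibroblasts lie in the connective tissue cuff around large vessels and airways, next to nerves, lymphatics and resident immune cells. They are known as a source of interleukin-33, chemokines and complement, and carry the stem-cell antigens encoded by *Ly6a* and *Cd34*. *Pi16* encodes a secreted peptidase inhibitor, *Scara5* a ferritin receptor, *Entpd2* an ectonucleotidase that cleaves extracellular ATP, and *Ccl11* the eosinophil chemokine eotaxin. *Cthrc1*, which the rule limited, marks the collagen-rich fibrotic fibroblasts that appear after injury, and *Tubb3* encodes the tubulin isotype β-III tubulin.

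All mice were 8 to 11 weeks old and received bleomycin, a drug that injures the lung and brings on fibrosis, into the trachea at 0.8 U/kg. The Tubb3-/- mice carried Cre recombinase knocked into both copies of *Tubb3*, so the gene was disrupted in every cell type, and the WT mice were littermates. Each mouse gave a whole-cell library, depleted of erythroid cells with TER-119, and a mural cell-enriched library. From the latter, CD31+, CD45+, EpCAM+ and TER-119+ cells were removed before sorting. MCAM+ PDGFRα- (mural) and MCAM- (non-mural) cells were then sorted from the mural cell-enriched pool and mixed in equal parts. The 4 libraries of a kind were tagged, pooled and run together, so the kind of library, its sort and its run cannot be told apart.

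The 8 libraries held 41462258 to 95036340 UMIs, with a median of 9186 to 16299 UMIs per cell, and the adventitial cells a median of 14836 and 14891.5 UMIs in WT against 17904 and 15896 in Tubb3-/- mice. No cell barcode was shared between libraries of a pool, and 59 barcodes occurred in both pools, of which 22 came from the same mouse. *Xist* and the Y-linked genes put replicate 1 of each genotype as male and replicate 2 as female, so sex was balanced between the genotypes.

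*Tubb3* itself followed the genotype over all cells, at 3.99 and 2.42 CPM (UMI counts scaled to a common total) in WT against 0.517 and 0.529 CPM in Tubb3-/- mice. *Cre* was seen as 0 UMIs in both WT mice and as 3 and 1 UMIs in Tubb3-/- mice. In adventitial fibroblasts *Tubb3* was rare, with 17 and 13 UMIs in WT against 9 and 11 in Tubb3-/- mice, in 11, 4, 8 and 6 cells. Scaled to library size these counts were 4.63 and 5.81 CPM in WT against 2.19 and 3.26 in Tubb3-/- mice, a log2 difference of -0.92 (edgeR quasi-likelihood adjusted p = 0.622). The 3′ tags that remained in Tubb3-/- mice lie outside the insertion site at the start of translation, and do not test whether the protein was lost.

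The 795 cells differed in how many of the 4 markers they carried. Exactly 2 markers were found in 364 cells (45.8%), 3 in 167 (21.0%) and all 4 in 264 (33.2%). *Pi16* was present in 679 cells (85.4%), *Entpd2* in 631 (79.4%), *Ccl11* in 528 (66.4%) and *Scara5* in 447 (56.2%). Just outside the rule stood 1702 cells with exactly 1 marker and all other conditions met, 33 cells with 2 UMIs of *Cthrc1*, and 1 cell with 1 UMI of *Col1a2*. The exclusion of *Hhip*, a gene of peribronchial and smooth muscle-like fibroblasts, removed a further 1019 cells with 2 or more markers. In the whole-cell libraries 2 or more of the markers were found in 0.509% of leukocytes (median 7083 UMIs per cell) and 0.117% of endothelial cells (median 7868.5 UMIs), cell types that should lack them and that were sequenced less deeply per cell.

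Cells with 3 or 4 markers and cells with 2 markers were different mixtures. The contractile gene *Myh11* was present at 2 or more UMIs in 46.4% of the cells with 2 markers and in 18.9% of those with 4. The mesothelial gene *Msln* was present at that level in 8.52% and 1.89%, and *Dcn*, a proteoglycan of most fibroblasts, in 75% and 100%. Cells with smooth muscle or mesothelial transcripts thus made up more of the cells with 2 markers. The share of members with exactly 2 markers was 34.7% and 51.5% in WT against 52.7% and 48.4% in Tubb3-/- mice, and WT replicate 1 was the lowest. Members with 2 or more UMIs of *Myh11* made up 27.1% and 28.8% in WT against 34.5% and 38.0% in Tubb3-/- mice, without overlap. The genotype comparisons of genes and of shares were therefore also made in the 431 cells with 3 or 4 markers.

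Genes that the rule did not use mostly placed the cells as adventitial. *Ly6a*, which encodes Sca-1, stood at 732, 442, 446 and 549 CPM in WT replicates 1 and 2 and Tubb3-/- replicates 1 and 2. Alveolar fibroblasts stood at 23.4 to 48.1 CPM, and are the comparison for the genes below. They were the 2786 cells outside the adventitial set with 2 or more of *Npnt*, *Ces1d*, *Scube2* and *Slc7a10*. Of the adventitial cells, 262 (33.0%) also carried 2 or more of these alveolar markers and were counted as adventitial only. *Col14a1*, a collagen of adventitia, stood at 625, 509, 518 and 704 CPM against 96.3 to 136, and *Cd248*, or endosialin, at 118, 111, 91.7 and 100.5 CPM against 21.9 to 29.8. For *Cd34*, *Dpt* and *Clec3b* the lowest adventitial mouse also lay above the highest alveolar mouse. *Igfbp6* overlapped, at 545 to 1252 against 441 to 1052 CPM. *Dpp4*, often used to define these cells, went the other way, at 11.0, 27.5, 10.7 and 6.68 CPM against 17.7 to 43.4 in alveolar fibroblasts, and was seen in 5.58%, 10.6%, 5.91% and 5.73% of the cells. The label thus held for 6 of the 8 check genes in every mouse, and *Dpp4* went against it.

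**Figure D1:**
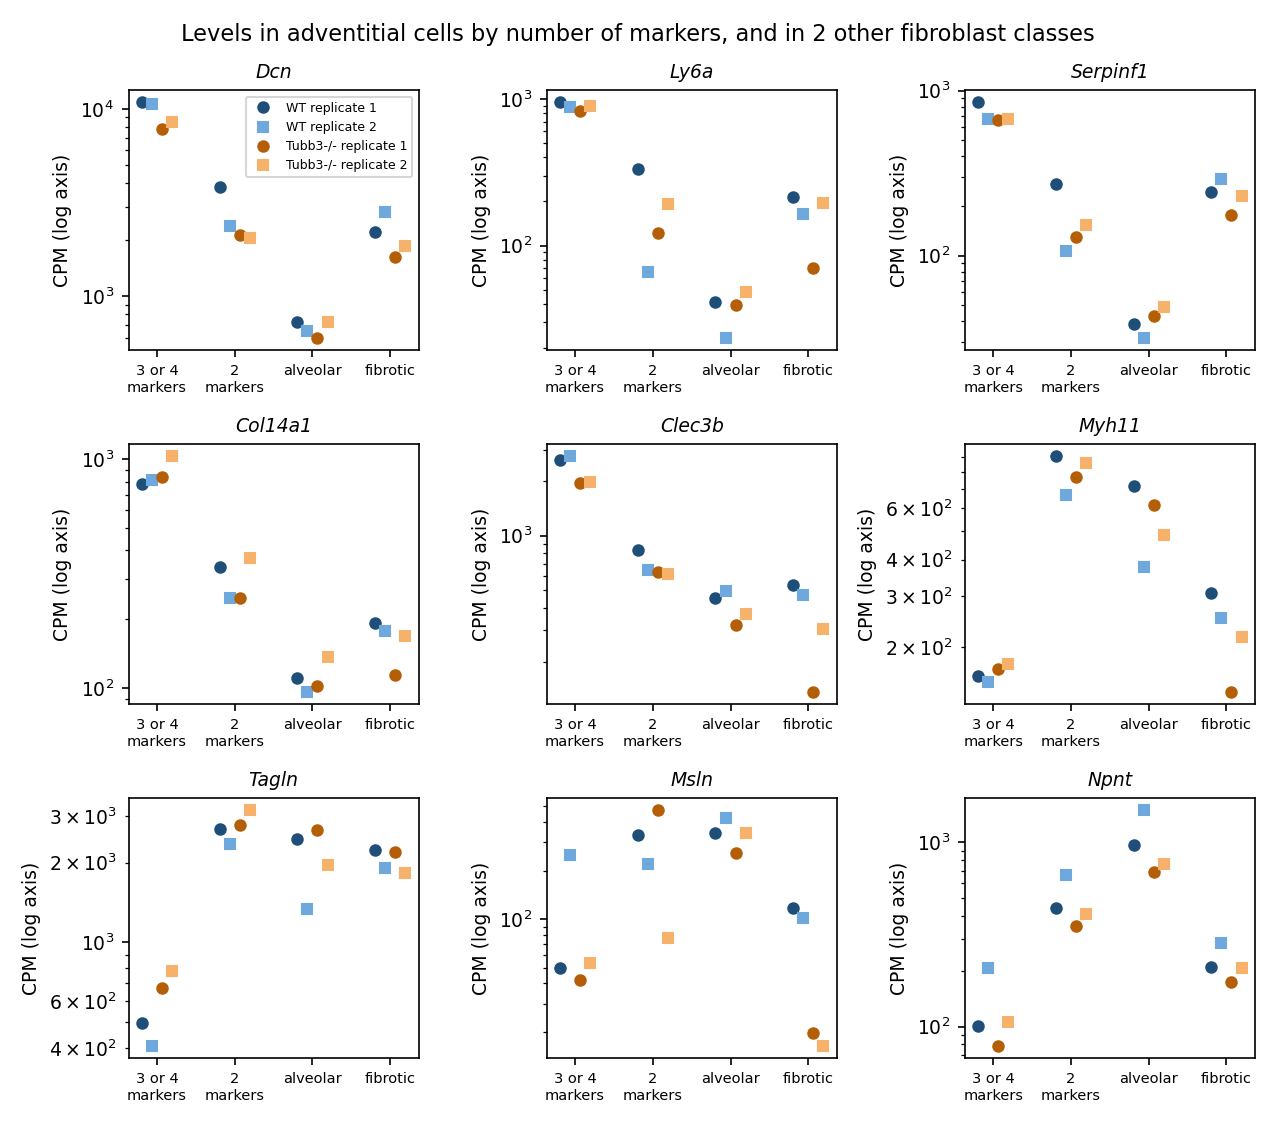
Levels (CPM, log axis) of 9 genes that the selection rule did not use, in adventitial cells with 3 or 4 markers, adventitial cells with 2 markers, alveolar fibroblasts and fibrotic fibroblasts; each point is 1 mouse. Dcn, Ly6a, Serpinf1, Col14a1 and Clec3b were highest in the cells with 3 or 4 markers in every mouse, and Myh11 and Tagln were higher in the cells with 2 markers.

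Of the 2914 genes at 50 CPM or more in the adventitial cells of every mouse, 57 stood more than 1 log2 unit above alveolar fibroblasts in all 4 mice, and 9 more than 1 unit below. Beyond the marker genes, the largest separation was that of *Lsamp*, a neural adhesion molecule, at 215, 175, 104 and 164 CPM against 2.26, 4.13, 4.52 and 4.36. *Ptx3*, a secreted pattern-recognition protein, stood at 259, 58.3, 94.1 and 100.2 CPM against 6.50, 3.12, 8.34 and 5.79. *Serpinf1*, which encodes the antiangiogenic factor PEDF, stood at 648, 368, 374 and 414 CPM against 38.7, 31.7, 42.9 and 48.9.

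The proteoglycan gene *Dcn* stood at 8377, 6133, 4746 and 5318 CPM against 731, 649, 597 and 730.1, and its relative *Lum*, which also binds collagen fibrils, at 471, 329, 319 and 413 against 32.9, 26.8, 40.6 and 26.5. *Il33*, an alarmin for innate lymphoid cells, stood at 159, 129, 175 and 122 CPM against 21.9, 24.9, 20.1 and 20.6. *Ly6c1*, *Ifi205*, *Apod*, *Gxylt2*, *Tspan11*, *Meg3*, *Ank2* and *Rian* completed the genes with the largest separation. On the other side, *Npnt*, a ligand in the alveolar basement membrane, stood at 219.5, 452, 225 and 255 CPM against 960.3, 1488, 692 and 759.5 in alveolar fibroblasts, whose definition used it. *Cxcl14*, a chemokine, stood at 102, 224, 199 and 163 against 389.7, 660.4, 583 and 505 CPM, and *Col13a1*, a membrane collagen of alveolar fibroblasts, at 37.7, 98.4, 55.9 and 54.6 against 209, 288, 155 and 192.

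Members with 3 or 4 markers and members with 2 also differed in genes that the rule did not use. *Ly6c1* stood at 343, 341, 241 and 209 CPM in cells with 3 or 4 markers and 39.9, 13.8, 24.7 and 21.4 in cells with 2. *Il33* stood at 219, 222, 323 and 195 against 47.2, 50.1, 48.1 and 48.9 CPM. *Ccl8*, a monocyte chemokine, stood at 166, 93.2, 125 and 111 against 21.1, 4.32, 36.2 and 5.51 CPM, and *Penk*, an opioid precursor, at 83.2, 68.9, 59.3 and 62.1 against 27.6, 6.05, 11.5 and 4.89. In cells with 2 markers the smooth muscle genes were the higher ones. *Myh11*, the smooth muscle myosin heavy chain, stood at 906, 667, 769.6 and 861 CPM in them and at 159, 152, 169 and 175 in cells with 3 or 4 markers, and *Lmod1*, an actin regulator of smooth muscle, at 192, 190.1, 177 and 209 against 37.3, 25.3, 29.1 and 43.4.

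The share of adventitial cells was compared between the genotypes to ask whether these cells became fewer. Among fibroblasts, defined as cells with at least 2 UMIs each of *Col1a2* and *Dcn* and none of *Ptprc*, *Cdh5* and *Epcam* (9517 cells), the share in the whole-cell libraries was 20.5% (95% Wilson interval 16.1 to 25.8%) and 13.1% (9.21 to 18.3%) in the WT mice. It was 11.7% (8.90 to 15.4%) and 11.3% (8.16 to 15.4%) in Tubb3-/- mice. The 2 genotypes did not overlap, with means of 16.8 ± 5.27% and 11.5 ± 0.317% (SD, n = 2 each). The exact two-sided permutation p was 0.3333, the smallest that this test can give with 2 against 2 mice, so it cannot pass a threshold of 0.05 here. Cells with 3 or 4 markers made up 15.97% and 8.88% against 8.62% and 6.16%, again without overlap.

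In the mural cell-enriched libraries the share was 9.20% (7.99 to 10.6%) and 5.66% (4.60 to 6.95%) in WT against 5.70% (4.88 to 6.66%) and 5.47% (4.61 to 6.47%) in Tubb3-/- mice. Here the groups overlapped (exact two-sided permutation p = 0.667), as they did for the cells with 3 or 4 markers (6.12% and 2.998% against 2.72% and 3.43%), and WT replicate 1 alone stood above the other mice. Without WT replicate 1 the difference in these libraries was -0.0786 percentage points, compared with -1.85 with all mice, and in the whole-cell libraries it was -1.56 compared with -5.28. Against all cells as the denominator the whole-cell values overlapped, at 1.59% and 0.962% in WT against 1.10% and 1.01% in Tubb3-/- mice. With each cell thinned to 5000 UMIs, the whole-cell shares among fibroblasts overlapped, at 30% and 14.7% in WT against 17.2% and 19.1% in Tubb3-/- mice. The thinned shares in the mural cell-enriched libraries did not, at 15.7% and 9.89% against 8.48% and 9.85%. Thinned to 3000 UMIs, the genotypes did not overlap in either kind of library.

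The makeup of the fibroblasts in the denominator was compared too. The numbers of adventitial, alveolar, fibrotic (2 or more UMIs of *Cthrc1*) and other fibroblasts were compared as shares of their sum by the edgeR quasi-likelihood test, adjusted over the 4 classes. In the mural cell-enriched libraries fibrotic fibroblasts were higher in Tubb3-/- mice, by a log2 ratio of +1.35 ± 0.32 (SE; edgeR adjusted p = 0.0245). In the whole-cell libraries their ratio was +1.10 ± 0.54 (SE; edgeR adjusted p = 0.358). All fibroblasts of the mural cell-enriched libraries held a median of 16803.5 and 15664 UMIs in WT against 20129 and 18636 in Tubb3-/- mice. The part of this depth in the numbers of fibrotic fibroblasts was not tested. The ratio of adventitial fibroblasts was -0.40 ± 0.38 (SE; edgeR adjusted p = 0.455) in the whole-cell and -0.25 ± 0.28 (SE; edgeR adjusted p = 0.552) in the mural cell-enriched libraries. Among fibroblasts without *Hhip* and with at most 1 UMI of *Cthrc1*, the whole-cell libraries gave an adventitial share of 47.0% and 26.9% against 31.9% and 30.8%. The mural cell-enriched libraries gave 21.6% and 12.8% against 17.3% and 15.6%, and the genotypes overlapped in both kinds of library.

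**Figure D2:**
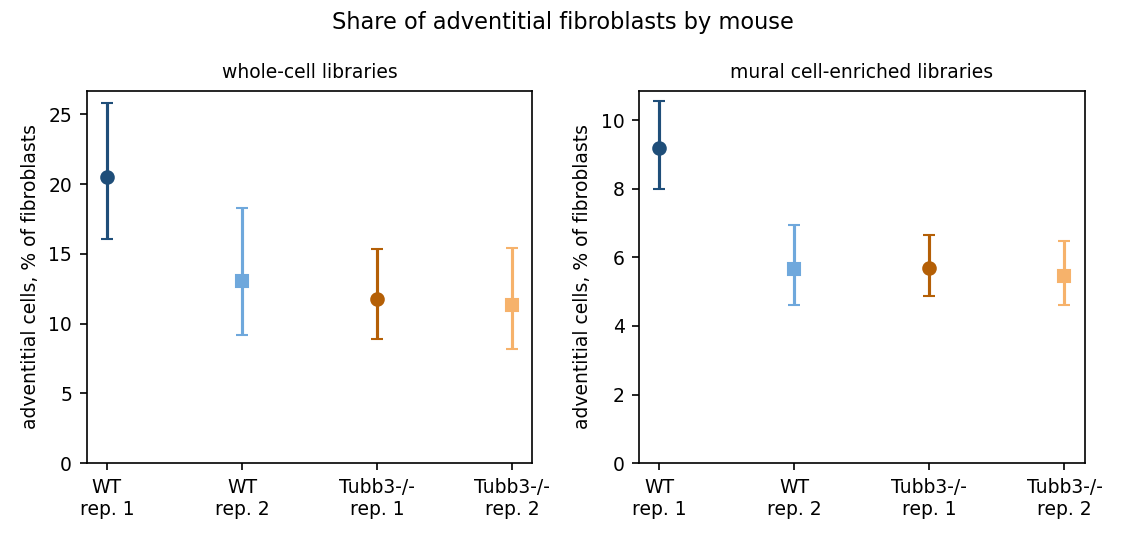
Adventitial fibroblasts as a percentage of all fibroblasts in each of the 4 mice, in whole-cell and mural cell-enriched libraries; points are mice, lines are 95% Wilson intervals, and the axes start at 0 and differ in range. WT replicate 1 is the highest mouse in both panels, and the other 3 mice lie between 11.3 and 13.1% in the whole-cell libraries.

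Gene expression was compared between the genotypes in the UMIs summed over the adventitial cells of each mouse. Of 11997 genes tested, none passed an adjusted p of 0.05 (0%; edgeR quasi-likelihood test, Benjamini-Hochberg adjustment). At an unadjusted p under 0.05, 460 genes were higher (3.83%) and 612 lower (5.10%) in Tubb3-/- mice. The Tubb3-/- values were both above the WT values for 2383 genes (19.9%) and below them for 2283 (19.0%). Replicate 1 was male and replicate 2 female in both genotypes, and with this number, and so sex, as a replicate block edgeR called 29 of the 11997 genes. DESeq2 called 36 genes, 10 higher and 26 lower, or 0.174% of the 20648 genes to which it gave a p-value. Its adjustment ran over fewer genes than these, so that share is not comparable with the shares of edgeR. Limma-voom called none. In the cells with 3 or 4 markers edgeR called 2 of 10287 genes (0.0194%), *Saa3* and *Frmd5*, both higher. The p-values of the fit without the block rest on the spread between the 2 mice of a genotype, a male and a female. That spread is estimated with the help of the other genes. Levels are given for WT replicates 1 and 2 against Tubb3-/- replicates 1 and 2, and a positive log2 difference means a higher level in Tubb3-/- mice.

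The gene with the largest positive difference among those named was *Saa3*, which encodes an acute-phase serum amyloid A protein made locally in inflamed tissue. In the adventitial fibroblasts it stood at 28.0 and 8.93 CPM in WT against 402 and 259 in Tubb3-/- mice, without overlap, a log2 difference of +4.07 ± 0.42 (SE; edgeR adjusted p = 0.0645). A UMI of *Saa3* was found in 13.5% and 14.4% of the cells in WT against 26.8% and 18.2% in Tubb3-/- mice. With each cell thinned to 5000 UMIs these shares were 4.87%, 4.96%, 14.2% and 8.24%, with 9 to 25 shallower cells left out per mouse. Endothelial cells, which should lack the gene, showed a UMI in 3.84% to 4.90% of cells at lower depth (medians of 5990.5 to 8439 UMIs).

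The UMIs of *Saa3* were concentrated in few cells. A single cell held 929 of the 1650 UMIs in Tubb3-/- replicate 1, 422 of 872 in replicate 2, 65 of 103 in WT replicate 1 and 2 of 20 in WT replicate 2. Without that cell in each mouse the level was still 9.72 and 8.47 CPM in WT against 175 and 138 in Tubb3-/- mice. In the cells with 3 or 4 markers it was 9.12 and 7.85 against 163 and 504 CPM (log2 +5.25, edgeR adjusted p = 0.0182), and the whole-cell libraries alone gave 5.63 and 4.41 against 207 and 126 CPM. Without the *Hhip* limit the log2 difference was smaller, at +2.22 (edgeR adjusted p = 0.146). In the members without smooth muscle or mesothelial genes it was +3.93 (edgeR adjusted p = 0.172). In cells with 2 markers the Tubb3-/- mice were unlike each other, at 594 and 17.1 CPM. *Saa3* had 81 and 12 UMIs in the WT cells with 2 markers, against 1346 and 28 in the Tubb3-/- cells. Without the highest cell of each mouse the levels there were 11.8 and 8.80 CPM in WT against 189 and 5.56 in Tubb3-/- mice. The genotypes overlapped in these cells. *Saa3* lies on chromosome 7, 46711998 to 46715700, minus strand (GRCm38), near other members of its family. A read that matched more than 1 of them could have been dropped.

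The promoter of *Saa3* is shown because this gene had the largest difference of the genes named for the genotype comparison. The sequence runs from 250 bases before to 50 bases after the RefSeq start site (GRCm38.p6, chr7:46715627-46715926, minus strand), and capitals mark matches to TTNNGNAA on either strand, a simple form of the motif bound by C/EBP factors.
Saa3: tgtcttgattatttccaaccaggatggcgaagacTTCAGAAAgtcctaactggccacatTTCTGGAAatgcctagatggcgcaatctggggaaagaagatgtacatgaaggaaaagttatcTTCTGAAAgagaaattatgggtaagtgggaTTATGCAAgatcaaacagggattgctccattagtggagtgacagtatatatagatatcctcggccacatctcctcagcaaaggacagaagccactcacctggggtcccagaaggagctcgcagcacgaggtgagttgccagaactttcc
Its 4 matches did not overlap each other. At least 1 match was found in 40.7% of 32851 promoters of this length and 4 or more in 0.852%, and the NF-kappaB motif, which 0.411% of promoters hold, was not found in this window.

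*Hp*, which encodes the acute-phase haemoglobin scavenger haptoglobin, followed the same order, at 20.7 and 19.7 CPM in WT against 183 and 98.8 in Tubb3-/- mice (log2 +2.80, edgeR adjusted p = 0.0645). Its highest cell held 233 of 750 UMIs in Tubb3-/- replicate 1. *Spp1*, which encodes the matrix protein osteopontin, stood at 255 and 119 CPM in WT against 921 and 2221 in Tubb3-/- mice, but a single cell held 2090 of 3780 UMIs in Tubb3-/- replicate 1 and 4793 of 7483 in replicate 2. In the cells with 3 or 4 markers *Spp1* stood at 338 and 80.5 against 118 and 99.0 CPM (log2 -0.995), where 1 cell of WT replicate 1 held 585 of 816 UMIs. Without the highest cell of each mouse these levels were 91.8 and 79.7 against 87.8 and 91.2 CPM, and the groups overlapped. In the members without smooth muscle or mesothelial genes the log2 difference was +4.60 (edgeR adjusted p = 0.00251). *Spp1* is also a strong macrophage gene, at 807, 702, 2484 and 2336 CPM in the leukocytes of the same mice in the order above. The part of leukocyte RNA in the *Spp1* values was not tested.

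Other genes that stood higher in Tubb3-/- mice were spread over many cells. *Frmd5*, a cytoskeletal adaptor of cell adhesion, stood at 132 and 73.3 CPM in WT against 305 and 269 in Tubb3-/- mice (log2 +1.47, edgeR adjusted p = 0.209), and in the cells with 3 or 4 markers at 140.5 and 117 against 435 and 372 CPM (log2 +1.64, adjusted p = 0.0182). *Mark1*, a kinase of microtubule-associated proteins, was found in 35.9% and 37.1% of WT cells and 55.0% and 58.9% of Tubb3-/- cells, at 40.8 and 33.5 against 85.5 and 84.9 CPM (log2 +1.18, edgeR adjusted p = 0.118). *Postn*, which encodes the matrix protein periostin, stood at 105 and 123 against 227 and 201 CPM (log2 +0.91). The groups of each of these genes did not overlap.

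*Lpl*, lipoprotein lipase, stood at 148 and 137 against 274 and 234 CPM (log2 +0.83), and *Cyp7b1*, an oxysterol hydroxylase, at 130.4 and 135 against 247 and 214 CPM (log2 +0.80). *Rcan2*, a calcineurin regulator, stood at 43.6 and 42.4 against 82.6 and 70.6 CPM (log2 +0.83). None of these 3 genes passed the test. *Rcan2* was at -0.29 in the whole-cell libraries alone.

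Among genes lower in Tubb3-/- mice, *Lgals7*, the epithelial galectin-7, had the smallest adjusted p (0.0504 by edgeR), at 30.8 and 47.8 CPM in WT against 2.68 and 3.56 in Tubb3-/- mice (log2 -3.63). It was found in only 9, 6, 5 and 3 cells, and a single cell held 63 of 113 UMIs in WT replicate 1 and 73 of 107 in WT replicate 2. In the cells with 3 or 4 markers it had 18, 0, 6 and 10 UMIs. *Krt8*, a simple-epithelium and mesothelium keratin, was similar, at 28.3 and 40.7 against 11.2 and 10.4 CPM (log2 -1.65) with 52 of 104 and 43 of 91 UMIs in 1 cell of each WT mouse.

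*Arih1*, which encodes a ubiquitin ligase, was evenly spread, with a UMI in 91.2% to 95.5% of the cells, and stood at 1645 and 1174 against 562 and 542 CPM (log2 -1.35, edgeR adjusted p = 0.161). *Cstf3*, an mRNA 3′-end cleavage factor, stood at 311 and 317 against 159 and 165 CPM (log2 -0.96), and *Txnrd1*, thioredoxin reductase, at 174 and 158 against 96.4 and 85.2 CPM (log2 -0.87). *Spats2* (101 and 94.3 against 45.8 and 47.2 CPM), *Mpp5*, a polarity scaffold (127 and 109 against 63.8 and 60.5 CPM), and *Gse1* (117 and 122 against 60.9 and 66.5 CPM) also stood lower in both Tubb3-/- mice. *Gse1* lies on chromosome 8 (120228456 to 120581390, GRCm38), as the targeted *Tubb3* does (123411424 to 123422015), and the annotated gene *Gm20388* overlaps both on the same strand. *Hp* (109575128 to 109579172) and *Lpl* (68880491 to 68907448), named above as higher, lie on chromosome 8 too.

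The RNA-binding protein gene *Rbfox1* (50.9 and 39.8 against 16.6 and 15.1 CPM) and *Depdc5*, a component of the amino acid-sensing complex GATOR1 (76.5 and 55.8 against 31.7 and 30.0 CPM), rested on fewer cells. *Rbfox1* was found in 8.33% to 11.4% of the cells, and its log2 difference of -1.52 was -0.17 in the whole-cell libraries alone (edgeR adjusted p = 0.99) and -0.19 in the members without smooth muscle or mesothelial genes (adjusted p = 0.974). A single cell of WT replicate 2 held 86 of 125 UMIs of *Depdc5*. *Cstf3* overlaps *Tcp11l1* on the other strand, *Frmd5* the antisense gene *Gm14020* and *Mark1* the antisense gene *Gm38251*. How the counting treated such overlaps is not given in the sources used here, and the split of UMIs between these partners is uncertain.

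**Figure D3:**
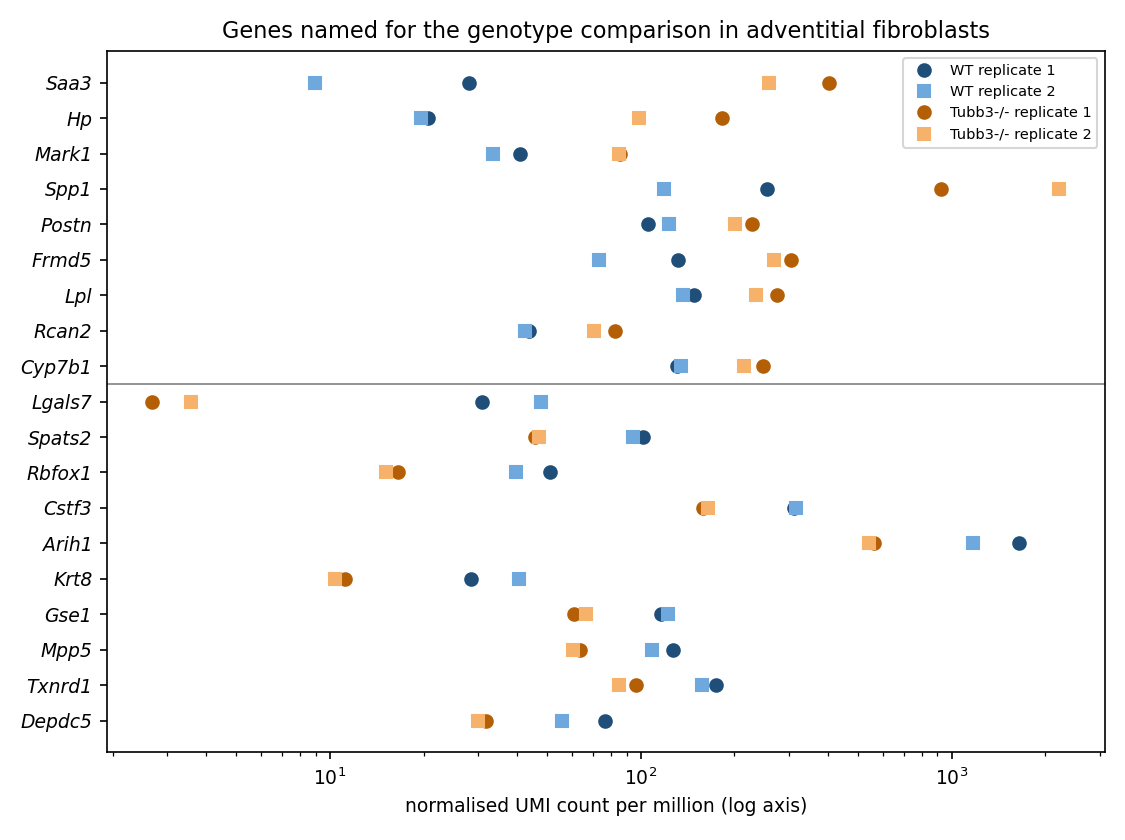
Levels of 19 genes named for the genotype comparison in adventitial fibroblasts (TMM-normalised CPM, log axis); each point is 1 mouse. The upper 9 genes were higher and the lower 10 genes lower in Tubb3-/- mice without overlap, and none passed the adjusted threshold.

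**Figure D4:**
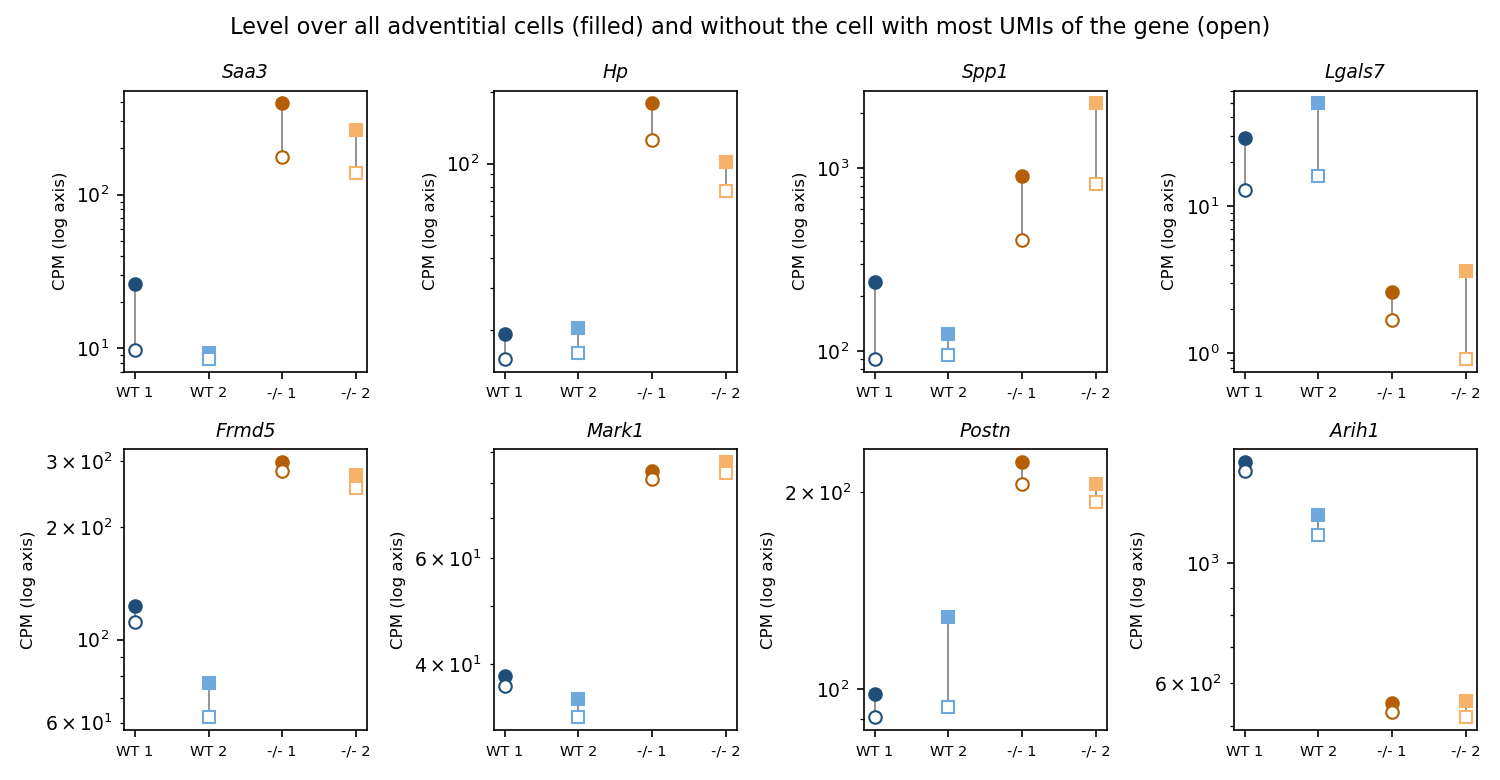
Levels of 8 genes (CPM, log axis) in each mouse over all adventitial cells (filled) and without the cell that held most UMIs of that gene (open). Leaving out 1 cell moved Saa3 from 394 to 175 CPM in Tubb3-/- replicate 1, and the highest cell held at most 8.87% of the Arih1 and 8% of the Mark1 UMIs of a mouse.

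Genes that mark adventitial fibroblasts and that the rule did not use stood lower in Tubb3-/- mice as a group. Of 30 listed genes, all tested, 0 were called, 12 were lower and 0 higher at an unadjusted p under 0.05, and 16 were below both WT mice in both Tubb3-/- mice. Their median log2 difference was -0.42, beside 0.0019 over all genes tested. Over all genes tested, 3.83% were higher and 5.10% lower at that p, and 19.9% stood above and 19.0% below both WT mice. These shares are the background for the counts of every list below. *Gsn*, the actin-severing protein gelsolin and the most abundant of them, stood at 12916 and 11134 CPM in WT against 6220.1 and 7546 in Tubb3-/- mice (log2 -0.80, edgeR adjusted p = 0.33). *Clec3b*, which encodes tetranectin, stood at 2135 and 1548 against 1264 and 1269.5 CPM (log2 -0.54), and *Igfbp6*, an inhibitor of IGF-II, at 1087 and 1199 against 795 and 533 CPM (log2 -0.78). For each of these genes both Tubb3-/- mice were the lower ones.

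*Pcolce2*, an enhancer of procollagen processing, stood at 889 and 881 against 442 and 572 CPM (log2 -0.80), *Cd34* at 406 and 296 against 234 and 236 CPM (log2 -0.58), and *Has1*, a hyaluronan synthase, at 995 and 482 against 428 and 398 CPM (log2 -0.84). *Mfap5* (1222 and 801 against 920.1 and 889 CPM), *Dpt* (964 and 666 against 729 and 844 CPM) and *Il33* (169.9 and 124 against 178 and 119.6 CPM) overlapped between the genotypes. Of the markers of the rule, *Pi16* stood at 792 and 629 against 482 and 526 CPM, *Scara5* at 205 and 140.3 against 108 and 142 CPM and *Entpd2* at 224 and 129 against 114 and 133 CPM, and *Scara5* and *Entpd2* overlapped. In the cells with 3 or 4 markers the median of the 30 genes was -0.44, with 23 of 30 lower. The median of the list was -0.64 in fibrotic and -0.19 in alveolar fibroblasts of the same mice. A lower median was thus not particular to the adventitial cells. In these, the share of cells with 2 or more UMIs of *Myh11* moved with the lower level of the list, as given above, and its part in it was not tested.

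Fibrotic fibroblast genes stood higher. Of 19 tested genes 0 were called, 10 were higher and 0 lower at an unadjusted p under 0.05, and 12 were above both WT mice in both Tubb3-/- mice, with a median log2 difference of +0.46. *Eln*, which encodes elastin, stood at 2020.1 and 1648 CPM in WT against 2471 and 3242 in Tubb3-/- mice (log2 +0.64, edgeR adjusted p = 0.406). *Fn1*, fibronectin, stood at 1029 and 986 against 1798 and 1308 CPM (log2 +0.62), and *Sfrp1*, a secreted Wnt inhibitor, at 205 and 119 against 408 and 255 CPM (log2 +1.03). The groups of each did not overlap.

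*Acta2*, smooth muscle actin, stood at 2095 and 2205 against 2815 and 3004 CPM (log2 +0.44), *Tagln* at 1346 and 1391 against 1845 and 1909 CPM (log2 +0.46), and *Fst*, the activin inhibitor follistatin, at 47.4 and 56.3 against 82.3 and 83.7 CPM (log2 +0.69). *Col1a1* (4078 and 2218 against 4227 and 4148 CPM), *Runx1* (116 and 88.9 against 143 and 115 CPM), *Tnc* (48.5 and 179.6 against 180.5 and 93.5 CPM) and *Timp1* (616 and 265 against 787 and 337 CPM) had an unadjusted p of 0.05 or more, and no gene of the list passed the adjusted threshold. The median of the list was +0.63 in the cells with 3 or 4 markers, +1.03 in alveolar and +0.36 in fibrotic fibroblasts of the same mice. *Cthrc1*, which the rule capped, stood at 12.5 and 8.49 against 9.99 and 11.9 CPM.

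Collagen chains other than *Col1a2* followed the fibrotic genes in direction. Of 17 tested, 4 were higher and 0 lower at an unadjusted p under 0.05, 9 were above and 1 below both WT mice, and the median was +0.37. *Col5a2*, a regulator of fibril diameter, stood at 596 and 453 against 811 and 774 CPM (log2 +0.59), *Col18a1*, a basement membrane collagen, at 149 and 142 against 204 and 208 CPM (log2 +0.50), and *Col4a2* at 324 and 286 against 475 and 379.9 CPM (log2 +0.49). *Col3a1*, among the most abundant chains, stood at 5758 and 3377 against 6523 and 6762 CPM (log2 +0.54).

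Elastic fibre and microfibril genes were mixed, with 3 higher and 1 lower of 19 at an unadjusted p under 0.05 and a median of +0.15. *Emilin1* stood at 111 and 96.0 against 171 and 145 CPM and *Emilin2* at 27.8 and 24.1 against 13.4 and 20.5 CPM, so these paralogs went opposite ways. Small leucine-rich proteoglycans had 0 higher and 2 lower of 9 and a median of -0.05. *Dcn* stood at 8954 and 5877 against 4841 and 5198 CPM (log2 -0.56), and *Omd* at 25.0 and 21.0 against 14.1 and 13.9 CPM. *Bgn*, a relative of *Dcn*, stood at 2596 and 2081 against 2985 and 2682 CPM (log2 +0.28).

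Inflammatory and acute-phase genes split. Of 17 tested, 5 were higher and 3 lower at an unadjusted p under 0.05, with a median of +0.17. Beside *Saa3* and *Hp*, *Serpina3n*, a protease inhibitor of the acute phase, stood at 727 and 343 against 1336 and 899 CPM (log2 +1.06), and *Cxcl12*, the ligand of CXCR4, at 423 and 325 against 525 and 467 CPM (log2 +0.41). *Cxcl1*, a neutrophil chemokine, stood at 1705 and 632 against 543 and 465 CPM (log2 -1.21), and *Il6* at 989 and 439 against 463 and 348 CPM (log2 -0.82). *Il6* overlapped between the genotypes, and *Serpina3n*, *Cxcl12* and *Cxcl1* did not. None of these genes passed the adjusted threshold. *C3* (1889 and 1518 against 2052 and 2164 CPM) and *Mt2* (1449 and 639 against 1278 and 733 CPM) differed by +0.31 and -0.06 log2 units. *Lcn2*, or lipocalin-2, was at 14.2 and 1.34 against 26.3 and 7.72 CPM and overlapped.

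Among 22 chemokine and cytokine genes, 5 were higher and 5 lower at an unadjusted p under 0.05, with a median of -0.12. *Cxcl13*, the B-cell chemokine, stood at 19.3 and 6.25 against 107 and 40.4 CPM (log2 +2.43), with 211 of 441 UMIs in 1 cell of Tubb3-/- replicate 1. *Ccl19*, a ligand of CCR7, stood at 67.5 and 33.1 against 129 and 86.7 CPM (log2 +1.07), and *Cxcl2* at 163 and 72.4 against 56.0 and 49.9 CPM (log2 -1.17). The groups of these 3 genes did not overlap.

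*Ccl2*, a monocyte chemokine, stood at 268 and 179 against 198 and 47.2 CPM and overlapped, as did *Ccl11*, a gene of the rule outside this list, at 475 and 237 against 351 and 273 CPM. *Tslp*, an epithelial-type alarmin, stood at 51.5 and 20.1 against 24.1 and 16.3 CPM and overlapped.

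Interferon response genes had 0 higher and 6 lower of 29 at an unadjusted p under 0.05, 13 below and 2 above both WT mice, and a median of -0.13. Over all genes tested, 5.10% were lower at that p and 19.0% stood below both WT mice. *Isg15*, a ubiquitin-like modifier, stood at 85.2 and 80.4 against 42.1 and 49.3 CPM (log2 -0.86), and the transcription factor *Irf1* at 252 and 187 against 139 and 103 CPM (log2 -0.86). The other abundant members *B2m* (1266 and 1039 against 1273 and 1320.3 CPM), *Bst2* (199 and 170.2 against 158 and 184 CPM) and *Iigp1* (145 and 135 against 118 and 133 CPM) had an unadjusted p of 0.05 or more, and no gene of the list passed the adjusted threshold. *Cxcl10*, the interferon-induced ligand of CXCR3, stood at 139 and 111 against 139.6 and 51.9 CPM (log2 -0.38) and overlapped, and its difference turned positive in the whole-cell libraries alone (1.04) and in the cells with 3 or 4 markers (0.27). Complement genes had 1 higher and 1 lower of 11 and a median of +0.09, with *Serping1* at 2616 and 1738 against 2085 and 1966 CPM and *Clu* at 245 and 289 against 398 and 352 CPM (log2 +0.49).

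Immediate-early genes, which respond to stimulation and to tissue dissociation, had 0 higher and 11 lower of 24 at an unadjusted p under 0.05, and 17 were below both WT mice. Their median was -0.39. *Junb* stood at 3491 and 2669 against 2067 and 2059 CPM (log2 -0.58), *Egr1* at 2424 and 2086 against 1535 and 1618 CPM (log2 -0.52), and *Nfkbia*, the inhibitor of NF-kappaB, at 1226 and 849 against 712 and 604 CPM (log2 -0.66). The order was the same in the other classes of the same mice, with a median of -0.38 in alveolar and -0.43 in fibrotic fibroblasts. The summed level of the list was 26955 and 24377 CPM in WT against 19452 and 20723 CPM in Tubb3-/- mice. The part of tissue handling in these values was not tested.

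Of 18 cell cycle genes 12 passed the filter on low counts, and very few cells carried them. No count or median is given over these 12, since a gene could pass through the Tubb3-/- mice alone. At least 5 UMIs over 8 of these genes were found in 0 and 0 cells of the WT mice and in 6 and 2 cells of the Tubb3-/- mice. The cells counted held 357 of 408 and 60 of 96 UMIs of the 8 genes. Of the 6 and 2 cells, 1 and 1 had 3 or 4 markers. *Top2a* stood at 2.18 and 2.23 against 21.2 and 6.23 CPM and *Mki67* at 3.27 and 1.34 against 13.4 and 2.08 CPM.

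Alveolar fibroblast genes had 0 higher and 5 lower of 15 at an unadjusted p under 0.05, with a median of -0.20. *Inmt*, an indolethylamine methyltransferase, stood at 834 and 1162 against 431 and 502 CPM (log2 -1.10, edgeR adjusted p = 0.209), and *Tcf21*, a lipofibroblast transcription factor, at 154 and 238 against 105 and 127 CPM (log2 -0.75). In alveolar fibroblasts of the same mice *Inmt* stood at 1409 and 2338 against 694 and 651 CPM. *Macf1* stood at 877 and 1232 against 755 and 840.4 CPM and *Limch1* at 752 and 931 against 706 and 867 CPM, and no gene of the list passed the adjusted threshold.

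Growth factors had 3 higher and 2 lower of 27 at an unadjusted p under 0.05 and a median of +0.15. *Igf1* stood at 252 and 215 against 298 and 377 CPM (log2 +0.53), *Hgf*, the hepatocyte growth factor, at 74.9 and 131 against 59.9 and 63.2 CPM (log2 -0.72), and *Vegfa* at 57.2 and 48.2 against 33.4 and 37.1 CPM (log2 -0.59). Wnt, BMP and hedgehog genes had 6 higher and 0 lower of 24 and a median of +0.03, and among them *Sfrp2* stood at 70.2 and 29.9 against 78.7 and 93.8 CPM and *Bmper* at 32.9 and 34.8 against 62.3 and 42.4 CPM. *Fst*, *Grem1*, *Dkk2*, *Sfrp1*, *Bmper* and *Sfrp2*, the 6 higher genes, encode secreted modulators of these pathways. The receptors and targets *Ptch1* (51.5 and 80.4 against 50.2 and 64.1 CPM), *Gli1* (23.7 and 22.3 against 18.3 and 20.8 CPM) and *Axin2* (13.6 and 23.7 against 15.1 and 13.1 CPM) had an unadjusted p of 0.05 or more, and no gene of the list passed the adjusted threshold.

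Glycolysis and hypoxia genes had 0 higher and 3 lower of 16 and a median of +0.03, with *Hk2*, a hexokinase, at 336 and 180.5 against 137 and 114 CPM (log2 -1.04) and *Gapdh* at 304 and 275 against 339 and 302 CPM. Retinoid and steroid genes had 0 higher and 1 lower of 10 and a median of -0.31, with *Rarres2* at 914 and 993 against 934 and 660.0 CPM. Of 11 tubulin genes, *Tubb3* among them, 0 were called, 0 were higher and 1 lower at an unadjusted p under 0.05, with a median of -0.25, and *Tuba1a*, the most abundant, stood at 539 and 511 against 438 and 519.9 CPM. *Tubb5* (191 and 187 against 218 and 191 CPM) and *Tubb4b* (163 and 179 against 163 and 139 CPM) differed by +0.11 and -0.18 log2 units.

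Markers of other cell types were measured in the same sums. Mural cell genes had 5 higher and 0 lower of 11 at an unadjusted p under 0.05, a median of +0.54 and a summed level of 828 and 846 CPM in WT against 1058 and 1183 CPM in Tubb3-/- mice, without overlap and with none of the genes at 0. In the cells with 3 or 4 markers the median was +0.17. *Rgs5*, a pericyte gene, stood at 17.2 and 3.13 against 19.7 and 52.2 CPM, *Notch3* at 40.8 and 61.6 against 72.8 and 80.4 CPM and *Cnn1* at 175 and 122 against 226 and 205 CPM. The part of contractile or pericyte transcripts in the fibrotic and adventitial lists was not tested.

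Mesothelial genes had 0 higher and 2 lower of 8 and a median of -0.58, summed to 399.9 and 889 CPM in WT against 594 and 262 CPM in Tubb3-/- mice. Peribronchial and airway smooth muscle genes had 1 higher and 0 lower of 8 and a median of +0.22, with *Actc1* at 344 and 342 against 458 and 440.4 CPM. Leukocyte genes had 0 and 0 of 10 and a median of -0.22, endothelial genes 0 higher and 1 lower of 7 and a median of -0.58, and Schwann cell and nerve genes 0 and 0 of 5 and a median of -0.09. Epithelial genes had 0 higher and 3 lower of 10 and a median of -0.09, with *Sftpc*, a product of type II cells, at 188 and 188 against 187 and 163 CPM. Of 5 erythroid genes only *Hbb-bs* was tested, at 8.98 and 7.59 against 11.9 and 9.79 CPM, and UMIs of its near-identical copies may be split between them. The 5 sex-linked genes had 0 and 0 at an unadjusted p under 0.05.

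The 12 genes that the study named for fibroblasts or for its main result had 5 higher and 0 lower at an unadjusted p under 0.05, with a median of +0.42. The study named some of them from these mice, so their direction is not independent evidence.

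The genotype difference in adventitial fibroblasts was set against that in alveolar fibroblasts of the same mice, with the mouse as a block, to ask where it was particular to the adventitial cells. Of 14049 genes, 7 differed (0.0498%; edgeR interaction test, adjusted p under 0.05). *Saa3* stood at 28.5 and 9.10 against 410.1 and 263 CPM in WT and Tubb3-/- adventitial cells and at 183 and 33.1 against 259 and 319 CPM in alveolar cells, an interaction of +2.68 log2 units (adjusted p = 0.0476). The Tubb3-/- values of the classes overlapped, and each WT mouse was lower in its adventitial than in its alveolar cells. *Lgals7* gave -3.76 (adjusted p = 0.00867), at 31.3 and 48.7 against 2.73 and 3.62 CPM in adventitial and 7.85 and 9.23 against 10.3 and 8.21 CPM in alveolar cells.

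*Ace*, angiotensin-converting enzyme, stood at 142 and 53.7 against 149 and 80.6 CPM in adventitial and 30.5 and 11.6 against 84.8 and 46.2 CPM in alveolar cells, an interaction of -1.41 (edgeR adjusted p = 0.012), and the genotypes overlapped in the adventitial cells and did not in the alveolar cells. *Sftpa1*, a surfactant gene of epithelial cells, stood at 21.9 and 26.4 against 24.4 and 20.8 CPM and 72.9 and 86.2 against 30.7 and 24.0 CPM (+1.45, adjusted p = 0.042), so the alveolar cells of the WT mice held the highest values. *Depdc5* (-1.59), *Cyp2e1* (+4.70) and *Cfd* completed the 7. All 1515 *Cfd* UMIs of Tubb3-/- replicate 1 came from 1 cell, so its fitted interaction is no measure of the population.

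Against fibrotic fibroblasts, 989 cells that met the same exclusions and held 2 or more UMIs of *Cthrc1*, the interaction test called none of 12497 genes (0%), with 890 at an unadjusted p under 0.05 and 5 called by DESeq2. The genotype comparisons within the classes share the same 4 mice. *Saa3* stood at 10.8 and 5.29 against 51.3 and 74.2 CPM and *Hp* at 59.1 and 13.9 against 54.0 and 82.3 CPM in fibrotic fibroblasts, and *Frmd5* at 44.3 and 18.9 against 120.2 and 146 CPM in alveolar and 74.0 and 48.9 against 105 and 154 CPM in fibrotic fibroblasts.

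Adventitial cells of the 2 kinds of library were compared within mice to see what the enrichment changed. Of 9416 genes, 219 were higher (2.33%) and 125 lower (1.33%) in the mural cell-enriched libraries (edgeR, mouse as block, adjusted p under 0.05). *Timp4*, an inhibitor of metalloproteinases, had the largest called difference of the genes that were higher in the mural cell-enriched libraries and averaged 10 CPM or more, at 0 to 4.28 CPM in the whole-cell and 29.3 to 56.7 CPM in the mural cell-enriched libraries, a log2 difference of +5.09. *Actc1*, cardiac actin, was higher, at 1.59 to 98.5 CPM in the whole-cell and 409 to 543 CPM in the mural cell-enriched libraries (+3.54). *Pdlim3* (+3.66), *Mylk4* (+3.65) and *Msln* (+3.73) rose as well, and the first 2 belong to contractile filaments.

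*S100a9*, a neutrophil gene, fell as well, with 14.6 to 25.0 CPM in the whole-cell libraries and 0 UMIs in all 4 mural cell-enriched libraries, and no fold is given against 0. *Chil3*, a macrophage gene, fell by 6.71 on the log2 scale, with 91.1 to 137 CPM in the whole-cell and 0.291 to 1.71 CPM in the mural cell-enriched libraries. *Igkc* of plasma cells, *Ccl6* and *Il1b* fell as well (-4.98, -4.47 and -4.08). Summed leukocyte genes stood at 490.4 to 652 CPM in the whole-cell and 90.8 to 110.0 CPM in the mural cell-enriched libraries, and summed mural genes at 145 to 613 and 979 to 1294 CPM. The cells that met the rule thus carried leukocyte transcripts in the whole-cell libraries and contractile transcripts in the mural cell-enriched ones. The summed adventitial list was lower in the mural cell-enriched library of each mouse, at 17262 to 30694 CPM in the whole-cell and 13706 to 22639 CPM in the mural cell-enriched libraries.

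**Figure D5:**
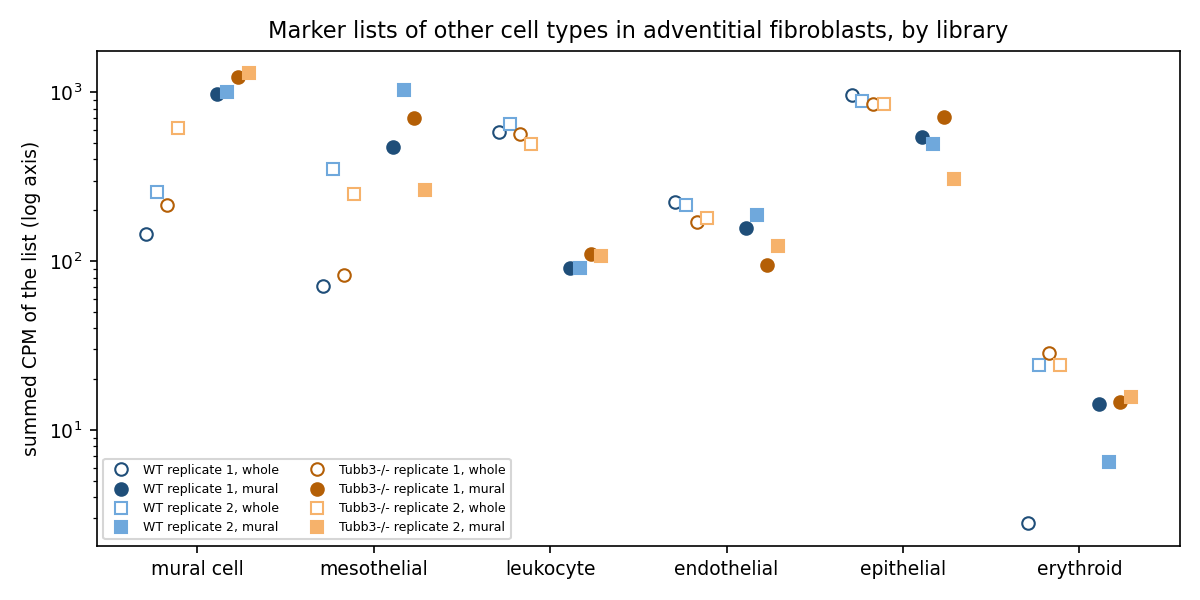
Summed level (CPM, log axis) of marker lists of 6 other cell types in the adventitial fibroblasts of each library; open points are whole-cell and filled points mural cell-enriched libraries. Leukocyte lists lie at 490.4 to 652 CPM in the whole-cell and 90.8 to 110.0 CPM in the mural cell-enriched libraries, and mural cell lists in the opposite order.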

How the data were processed

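Cells were from 8 libraries of 4 mice, a whole-cell and a mural cell-enriched library per mouse, matched to mice by their CellPlex tags; the tag of a library led in 99.9 to 100% of its cells. The authors deposited filtered matrices of UMI counts per gene and cell, made with Cell Ranger 7.1.0 on mm10 with *Cre* added. The cells, gene lists and comparisons were chosen with earlier results of these data known.

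Counts of the chosen cells were summed per mouse and compared with the edgeR 4.0.16 quasi-likelihood test in R 4.3.3 (filterByExpr, TMM scaling, Benjamini-Hochberg adjustment over all genes tested, threshold 0.05). Levels of the genotype, interaction and library comparisons are TMM-scaled CPM, and levels by cell class or marker number are plain CPM. Cells were handled in Python 3.11.15 with scanpy 1.11.5, and shares were compared by the exact permutation test of scipy 1.17.1. Wilson intervals cover counting error only. The replicate numbers correlated at r = 0.156 over 8849 genes with 2 pairs, and were not taken as pairs.

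Genes named for the genotype comparison were the 10 of smallest p in each direction that averaged 10 CPM or more and did not overlap, of which 1 is not reported here. The 5 largest called differences in each direction were named for the other comparisons, with up to 4 of the most abundant members of each list. Other list members were picked after their values were seen. Scrublet marked 22 of 630 adventitial cells in the mural cell-enriched and 0 of 165 in the whole-cell pool as doublets. These were kept and left out as an alternative. Other alternatives were DESeq2 1.42.0, limma-voom (limma 3.58.1), RLE factors, no filter, thinning to 5000 UMIs, each kind of library alone, other cell selections and leaving out each mouse. The selections without the *Hhip* limit and without smooth muscle or mesothelial genes were added after seeing the data. The tests were checked on simulated counts, drawn as sums at the mean and spread of each gene. These held no single cells with most UMIs of a gene, so the rates below may not hold in the real data. The genotype test called 61 of 100 genes changed 2-fold and 100 of 100 changed 4-fold, and 23 unchanged genes were called as well. The alveolar interaction called 77 and 99 of 100, and 26 unchanged genes. In the other comparisons 5 to 18 unchanged genes were called. A call in these comparisons can therefore be false.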

Additional observations from a re-analysis of the deposited data

Results flagged for a closer look

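The genotype difference of 7 genes was not the same in adventitial as in alveolar fibroblasts by the edgeR interaction test. The difference between the classes, in log2 units, was 17.22 for *Cfd*, 4.70 for *Cyp2e1*, 2.68 for *Saa3* and 1.45 for *Sftpa1*. It was -1.41 for *Ace*, -1.59 for *Depdc5* and -3.76 for *Lgals7*. The *Cfd* value rests on 1 adventitial cell with 1515 UMIs, and the other 3 mice had 1, 0 and 0 UMIs there. *Cyp2e1* had 10, 4, 147 and 24 UMIs in the adventitial cells of WT replicates 1 and 2 and Tubb3-/- replicates 1 and 2. *Lgals7* had 113, 107, 11 and 12 UMIs there. In groups of 2 mice no single mouse was tested as an outlier.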

How the results depend on the processing

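With 2 mice per genotype the number of called genes depended on the setting. For the genotype comparison, 0 genes were called by edgeR, limma-voom, without doublets, at 10% mitochondrial UMIs and without the *Hhip* limit. There were 36 with DESeq2, 1 with RLE factors, 433 with no filter on low counts, 2 in the whole-cell and 3 in the mural cell-enriched libraries alone, and 2 with at least 3 markers. There were 7 with no *Cthrc1* limit, 11 after thinning, and 1 each without haemoglobin UMIs and without smooth muscle or mesothelial genes. Leaving out 1 mouse gave 15 to 80. *Saa3* was called in 12 of 19 settings, *Lgals7* and *Hp* in 10 and *Frmd5* in 8. The difference of *Lgals7* was -0.10 with at least 3 markers.

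With the replicate number as a block 29 genes were called. The replicate number was also the sex of the mice. It marked no shared litter or day in the labels, and r was 0.156.

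The alveolar interaction called 207 genes with no filter, 0 in either kind of library alone, and 33 to 119 with 1 mouse left out. The fibrotic interaction called 276 with no filter, 1 in the mural cell-enriched libraries, 5 with DESeq2, and 0 to 36 with 1 mouse left out. The library comparison called 785 with no filter, 201 with no mouse block, and 171 to 430 with 1 mouse left out. The difference in share ran from -9.01 to -1.56 points in the whole-cell and -3.61 to -0.0786 in the mural cell-enriched libraries with 1 mouse left out. Over 11 settings of cells and denominator, the main one included, the genotypes did not overlap in 8 for the whole-cell and in 4 for the mural cell-enriched libraries.

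Of the single-gene values 13 changed sign. In the whole-cell libraries *Rcan2* was -0.29 and *Cxcl10* 1.04. With at least 3 markers *Spp1* was -0.995, with 585 of 816 UMIs of WT replicate 1 in 1 cell, and *Cxcl10* was 0.27. *Cxcl10* was 0.17 without smooth muscle or mesothelial genes and 0.16 without Tubb3-/- replicate 2. After thinning *Depdc5* was 0.032 and *Mki67* -0.61. Without Tubb3-/- replicate 1 *Mki67* was -0.24 and *Lcn2* -0.16. In the alveolar interaction *Cfd* was -0.087 in the mural cell-enriched libraries and *Hp* -0.22 without WT replicate 1, and in the fibrotic interaction *Hp* was -1.22 in the whole-cell libraries. With 1 mouse left out, *Lcn2* ran from -0.16 to 3.65, *Mki67* from -0.24 to 2.53, *Cxcl10* from -1.28 to 0.16, and the alveolar interaction of *Hp* from -0.22 to 1.85. The cause was not tested.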
